A study of Paramacrobiotus metropolitanus with 7 samples.

Results

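DMRT genes encode transcription factors that share a zinc-binding DNA-binding domain, the DM domain. The family takes its name from doublesex of the fruit fly and mab-3 of a nematode, which direct male or female traits in somatic tissues, and DMRT genes act in gonad development in many other animals. Dmrt93B, Dmrt99B and Dmrt11E are named after their fly relatives. The 5 DMRT orthologs of the tardigrade Paramacrobiotus metropolitanus were taken by their identifiers, as 5 of the 26306 transcripts in the deposited expression matrix, and each has a single transcript there. They are PmDmrt3090 (PARRI_0003090.t1) and PmDmrt3093 (PARRI_0003093.t1), which the study assigned to a Dmrt93B-related subfamily of the family Macrobiotidae, PmDmrt93B (PARRI_0005877.t1), PmDmrt11E (PARRI_0001169.t1) and PmDmrt99B (PARRI_0009851.t1).

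RNA-Seq libraries were made from whole bodies of adult males (4 libraries) and adult females (3 libraries) of the TYO strain, which had been reared apart and sexed by their developed sexual organs. No treatment was given to either sex, and each library came from a tube of many pooled animals, so that differences between individuals are averaged and differences between tubes remain. In whole animals, fewer cells that express a gene and less RNA per cell cannot be told apart. Levels are given as TPM, a unit in which each transcript is corrected for its length and for the size of its library. The authors then scaled the libraries to each other with the trimmed mean of M values (TMM), and the 7 libraries sum to between 891117 and 1127677. TPM keep no read depth, and the authors' mean normalized count per sex was used to describe it. The files name no marker gene of a tissue, so the whole-body label could not be checked.

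Of the 5 DMRT transcripts, PmDmrt3090, PmDmrt3093 and PmDmrt93B were higher in males, and no difference was called for PmDmrt11E and PmDmrt99B. Males were set against females with limma, on log2(TPM + 0.1), over the 18420 transcripts with at least 1 TPM in at least 3 libraries, and all 5 DMRT transcripts passed this filter. PmDmrt3093 and PmDmrt93B reached 1 TPM in male libraries only, and PmDmrt3090 in these and in female library 2. These 3 thus passed through their male levels. At a false discovery rate (FDR) of 0.05, 3 of the 5 were called higher in males, where 25.3% of all tested transcripts were called. None of the 5 was called lower in males, where 23.9% of all were called. With only a value above 0 required, over 24629 transcripts, PmDmrt3090, PmDmrt3093 and PmDmrt93B were still called higher in males (limma FDR 0.00105, 0.000609 and 0.0136). Of all tested transcripts, 49.3% were called in either direction, so that a call by itself is common in these libraries. The share of all tested transcripts whose sexes do not overlap was not determined. Non-overlap is therefore given below only as a description of the values. The median log2 difference (males minus females) was 2.56 over the DMRT transcripts and 0.50 over all tested transcripts. Relative to that median, the differences were 5.43 for PmDmrt3090, 5.62 for PmDmrt3093, 2.07 for PmDmrt93B, 0.07 for PmDmrt11E and -0.58 for PmDmrt99B, all on the log2 scale. The median of 0.50 depends on weak transcripts. When those averaging below 5 TPM were left out, it was 0.03, and 42.0% of calls were higher in males, against 51.4%. Median levels per library were 4.69 to 5.07 TPM in males and 1.87 to 2.90 TPM in females. The small offsets of PmDmrt11E and PmDmrt99B from 0.50 thus rest on the filter.

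**Figure D1:**
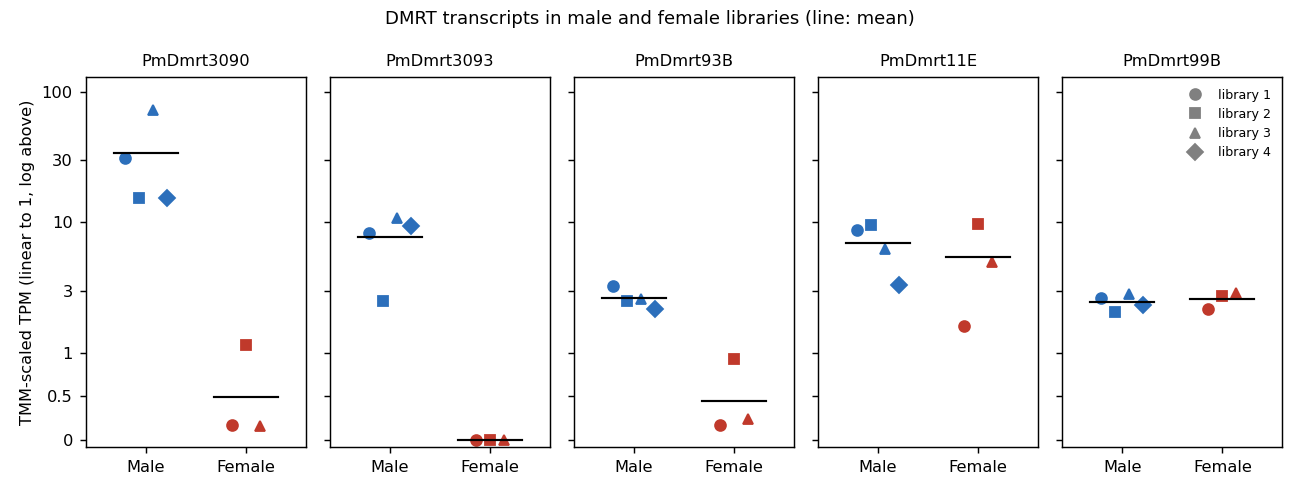
TMM-scaled TPM (vertical axis, linear up to 1 and logarithmic above) of each DMRT transcript in the 4 male and 3 female libraries. Each point is a library, its shape gives the library number, and lines are means. Every male library lies above every female library for PmDmrt3090, PmDmrt3093 and PmDmrt93B, and the sexes overlap for PmDmrt11E and PmDmrt99B. This only describes the points, as the share of all tested transcripts without overlap was not determined.

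PmDmrt3090 had 31.4, 15.4, 73.4 and 15.4 TPM in male libraries 1 to 4, against 0.173, 1.16 and 0.163 TPM in female libraries 1 to 3. It was the most abundant DMRT transcript in each of the 4 male libraries, and only 8.13% to 28.3% of all listed transcripts had a higher value there. In females it had rank 3 among the 5 DMRT transcripts in libraries 1 and 2, shared with PmDmrt93B in library 1, and rank 4 in library 3. In females, between 59.5% and 71.9% of all transcripts had a higher value. The log2 difference was 5.93 with a 95% interval from 4.20 to 7.66 (limma FDR 0.00081). It was 4.31 with 1 TPM added in place of 0.1 TPM, and 4.83 under quantile normalization, which forces 1 common distribution of values on all libraries. A larger difference was found in 1.07% of all tested transcripts. Male library 3 and female library 2 carried the high values, as the male mean was 20.7 ± 9.22 TPM without male library 3, against 33.9 ± 27.4 TPM with it. Without female library 2 the female mean was 0.168 TPM, against 0.498 ± 0.572 TPM with it, and the log2 difference was 6.67. The authors' mean normalized count was 418 in males and 6.15 in females. Divided between libraries in proportion to TPM, the female mean amounts to about 2.14, 14.3 and 2.01 counts in female libraries 1 to 3.

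PmDmrt3093 had 8.36, 2.49, 10.8 and 9.48 TPM in male libraries 1 to 4 and was listed at 0 in all 3 female libraries. Its groups therefore did not overlap, and male library 2 was the lowest of the males, at 31.9% of the male mean. The limma FDR was 0.00048, and the log2 difference of 6.11 (95% interval 4.64 to 7.59) rests on the added 0.1 TPM. The difference was 3.00 with 1 TPM added and 9.41 with 0.01 TPM added, so no fold is given. The authors' mean normalized count was 39.7 in males and 0 in females. In males 1 normalized count corresponded to 0.196 TPM, so that a level near or below this could go undetected in a library of similar depth.

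PmDmrt93B, the third member of the Dmrt93B clade, had 3.24, 2.51, 2.57 and 2.19 TPM in male libraries 1 to 4. It had 0.173, 0.933 and 0.239 TPM in female libraries 1 to 3. The lowest male library was above the highest female library, and female library 2 was again the highest of the females. The log2 difference was 2.56 with a 95% interval from 1.18 to 3.95 (limma FDR 0.0097). It was 3.15 without female library 2, where the female mean was 0.206 TPM, and 1.35 with 1 TPM added in place of 0.1 TPM. The call was lost under quantile normalization (log2 difference 0.76, limma FDR 0.22). The authors' mean normalized count was 31.5 in males and 5.62 in females, and the female mean amounts to about 2.17, 11.7 and 3.00 counts in female libraries 1 to 3.

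PmDmrt11E had 8.68, 9.62, 6.21 and 3.31 TPM in male libraries 1 to 4, against 1.62, 9.82 and 5.002 TPM in female libraries 1 to 3. The groups overlapped over most of their range, with the highest value of all in female library 2 and the lowest in female library 1. The log2 difference was 0.56 (limma FDR 0.47), with a 95% interval from -0.91 to 2.04. This interval spans levels in males from 0.532 to 4.11 times those in females. The sign turned without female library 1 (log2 difference -0.12, limma FDR 0.85), and the female mean was 3.31 TPM without female library 2, against 5.48 TPM with it.

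PmDmrt99B had 2.63, 2.06, 2.85 and 2.31 TPM in male libraries 1 to 4, against 2.18, 2.75 and 2.90 TPM in female libraries 1 to 3. It was the steadiest of the 5, as its highest library was 1.39 times its lowest in males and 1.33 times in females, and the groups overlapped. The log2 difference was -0.08 with a 95% interval from -0.96 to 0.80 (limma FDR 0.87), which spans levels in males from 0.513 to 1.74 times those in females. Under quantile normalization it was called lower in males (log2 difference -1.26, limma FDR 0.036), so that the absence of a call depends on the scaling between libraries.

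**Figure D2:**
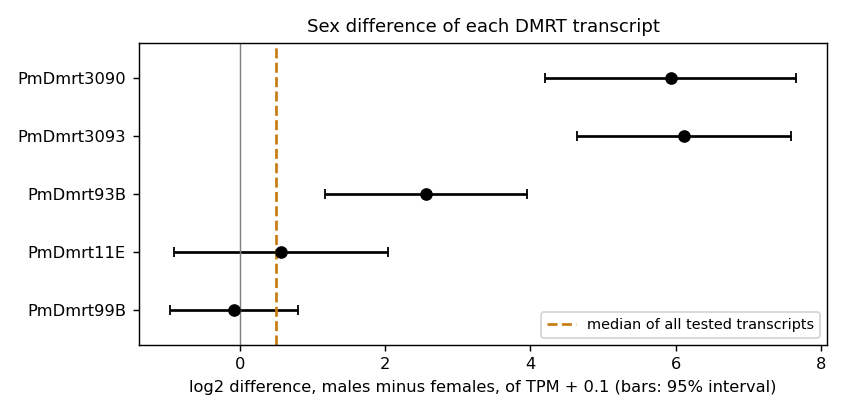
Log2 difference, males minus females, of TPM + 0.1 for each DMRT transcript (horizontal axis) with its 95% interval from limma. The dashed line is the median of all tested transcripts, 0.50, which lies below the intervals of PmDmrt3090, PmDmrt3093 and PmDmrt93B and inside those of PmDmrt11E and PmDmrt99B.

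The members were also set against each other within each library, as log2 ratios of TPM + 0.1. The added 0.1 TPM draws the ratios of weak transcripts toward 0, most of all in females. The log2 ratio of PmDmrt3090 to PmDmrt93B was 3.34 ± 1.00 in males and -0.03 ± 0.33 in females (SD, n = 4 and 3), a difference of 3.36. PmDmrt3090 was 9.70, 6.14, 28.6 and 7.05 times PmDmrt93B in male libraries 1 to 4, against 1.00, 1.24 and 0.682 times in female libraries 1 to 3. The sex difference of PmDmrt3090 thus exceeded that of PmDmrt93B (exact permutation test over libraries, two-sided, p = 0.0286, the smallest that 35 splits allow). In female libraries 1 and 3 this ratio rests on about 2 to 3 counts of each transcript. The log2 ratio of PmDmrt93B to PmDmrt99B was 0.09 ± 0.23 in males and -2.56 ± 0.95 in females, a difference of 2.64 without overlap (exact permutation test, p = 0.0286). The difference in this ratio was 1.41 with 1 TPM added and 2.98 with 0.01 TPM added. PmDmrt93B was between 0.901 and 1.23 times PmDmrt99B in males, against 0.0793 to 0.339 times in females. The log2 ratio of PmDmrt11E to PmDmrt99B was 1.36 ± 0.73 in males and 0.72 ± 1.11 in females and did not differ beyond the spread (exact permutation test, p = 0.40). After Benjamini-Hochberg adjustment over these 3 ratios, the exact permutation p-values were 0.0429, 0.0429 and 0.40. The other pairs of members were not tested, so the adjustment covers the 3 chosen ratios only.

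The order of the DMRT levels, per length in TPM, differed between the sexes. In males PmDmrt3090 came first in 4 of 4 libraries, at 13.8 times PmDmrt99B by the means. PmDmrt3093 and PmDmrt11E followed, and they could not be ordered, as each was the higher in 2 of the 4 libraries (log2 ratio of PmDmrt3093 to PmDmrt11E 0.08 ± 1.47). The place of PmDmrt3093 rests on the length of its predicted coding sequence, as it was 1.12 times PmDmrt11E by mean TPM in males but 0.680 times by the authors' mean normalized counts, which are not corrected for length. Against PmDmrt93B these ratios were 2.97 and 1.26. PmDmrt11E was above PmDmrt93B in all 4 male libraries, and PmDmrt3093 was above it in 3. PmDmrt93B and PmDmrt99B were the lowest in males and were within their spread of each other, as each was the higher in 2 of 4 libraries. In females PmDmrt11E came first in libraries 2 and 3, and PmDmrt99B in library 1. PmDmrt99B was above PmDmrt93B and PmDmrt3090 in all 3 female libraries. PmDmrt3090 and PmDmrt93B could not be ordered in females, with equal values in library 1, and PmDmrt3093 came last.

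Summed over the 5 transcripts, DMRT expression was 53.7 ± 29.9 TPM in males and 9.03 ± 5.30 TPM in females (SD, n = 4 and 3). PmDmrt3090 alone made up 57.8%, 48.1%, 76.6% and 47.1% of this sum in male libraries 1 to 4, against 4.18%, 7.91% and 1.96% in female libraries 1 to 3. Together with PmDmrt3093 and PmDmrt93B, the share was 63.6% to 90.5% in males and 4.84% to 14.3% in females. The female sum was made up mostly of PmDmrt11E and PmDmrt99B. PmDmrt11E held 39.0%, 67.0% and 60.3% of it in female libraries 1 to 3, and PmDmrt99B held 52.7%, 18.8% and 34.9%. In males, PmDmrt99B held only 2.98% to 7.08% of the sum, although its own TPM value was about the same as in females.

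**Figure D3:**
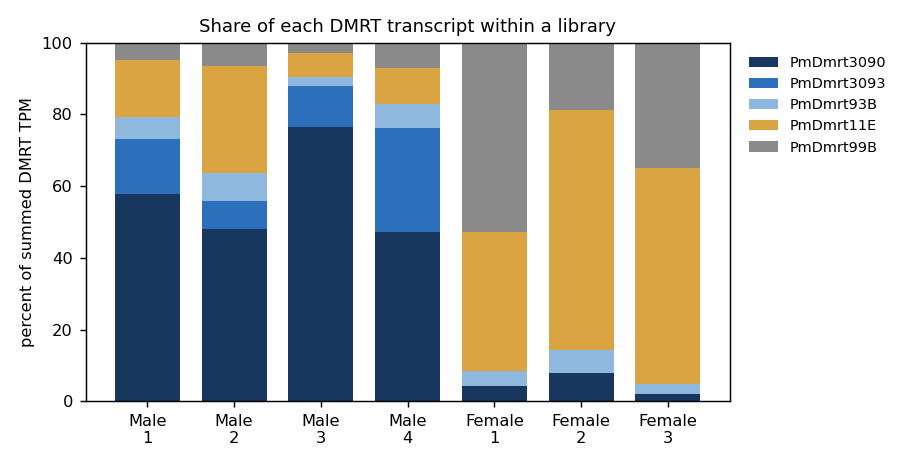
Share of each DMRT transcript (percent of the summed TPM of the 5, vertical axis) in each male and female library. PmDmrt3090 takes 47.1% to 76.6% in males and at most 7.91% in females, where PmDmrt11E and PmDmrt99B take most of the sum.

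PmDmrt3090 exceeded PmDmrt3093 in every male library, but by different factors. The ratio was 3.76, 6.20, 6.78 and 1.63 in male libraries 1 to 4, and thus varied 4.17-fold among males. Male libraries 2 and 4 had nearly the same PmDmrt3090 level, 15.4 TPM, whereas PmDmrt3093 was 2.49 TPM in male library 2 and 9.48 TPM in male library 4. The mean log2 ratio was 1.98 ± 0.93 (SD, n = 4) and was 2.41 without male library 4. In females no ratio is given, since PmDmrt3093 was listed at 0. Their summed level was 39.8, 17.9, 84.2 and 24.9 TPM in male libraries 1 to 4, against 0.173, 1.16 and 0.163 TPM in female libraries 1 to 3. The study describes these proteins as highly similar over their N-terminal part and the predicted PmDmrt3093 coding sequence as truncated by an inserted base in the assembly. A shorter model lowers both the length used for TPM and the reads that can be counted, so its effect on TPM was not determined. By the authors' mean normalized counts, which are not corrected for length, PmDmrt3090 was 10.5 times PmDmrt3093 in males, against 4.35 times by mean TPM. One TPM of PmDmrt3090 corresponded to 12.3 normalized counts in males, and 1 TPM of PmDmrt3093 to 5.10. The part of shared reads and of the truncated model in these ratios was not tested.

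The members differed in how far the spread between libraries went beyond counting. In males the coefficient of variation was 80.8% for PmDmrt3090, 47.2% for PmDmrt3093 and 40.6% for PmDmrt11E. The counting error estimated from the authors' mean normalized counts was 4.89%, 15.9% and 13.1% of the level for these transcripts, so their male libraries differed by more than counting. For PmDmrt93B the coefficient was 16.7% against a counting error of 17.8%, and for PmDmrt99B 14.1% against 19.6%. The male libraries of these weaker transcripts therefore did not differ detectably beyond counting. In females the coefficient was 75.2% for PmDmrt11E, against a counting error of 14.2%, and 14.5% for PmDmrt99B, against 18.2%. In females the coefficient was 114.8% for PmDmrt3090, against a counting error of 40.3%, and 93.9% for PmDmrt93B, against 42.2%. These estimates cover counting error only.

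The male libraries were also described relative to the male mean of each transcript, without a test. PmDmrt3090 stood at 0.926, 0.455, 2.16 and 0.454 times its male mean in male libraries 1 to 4. Over the 4659 other transcripts called higher in males, the median was 1.08, 0.923, 1.07 and 0.861 times the male mean in the same libraries. In male library 3, 1.76% of these transcripts were raised further than PmDmrt3090, and in male library 2, 94.7% stood higher relative to their mean. PmDmrt3093 stood at 1.07, 0.319, 1.39 and 1.22 times its male mean and thus shared the low value of male library 2 and not that of male library 4. PmDmrt93B, at 0.833 to 1.23 times, stayed close to these medians.

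**Figure D4:**
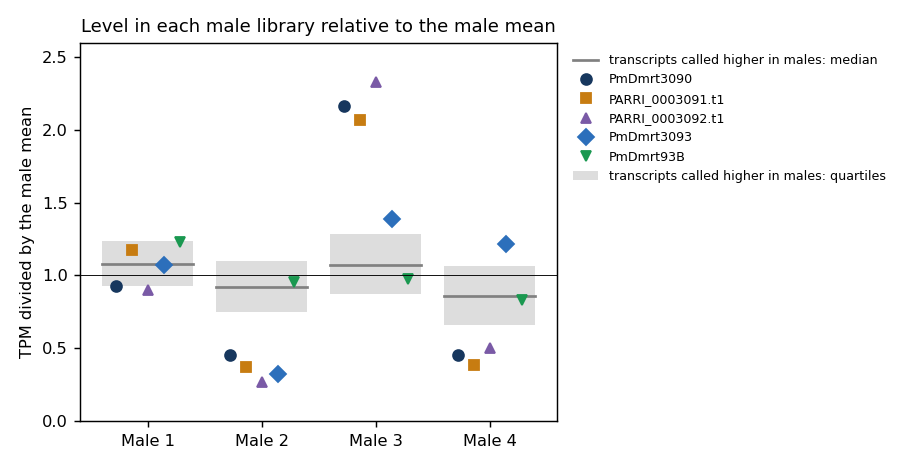
TPM of each transcript divided by its male mean (vertical axis) in male libraries 1 to 4. Grey boxes span the quartiles of the 4659 other transcripts called higher in males and grey lines are their medians. PmDmrt3090, PARRI_0003091.t1 and PARRI_0003092.t1 lie at 2.07 or above in male library 3 and at 0.504 or below in male libraries 2 and 4, whereas PmDmrt93B stays near 1. The authors' mean normalized count in males was 20.3 for PARRI_0003092.t1, against 418 for PmDmrt3090.

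The transcript whose pattern was most like that of PmDmrt3090 among all tested was PARRI_0003091.t1, numbered next to it (Pearson's r = 0.999 of log2(TPM + 0.1) over 7 libraries, a description in which the shared sex difference weighs heavily). It had 19.7, 6.28, 34.8 and 6.49 TPM in male libraries 1 to 4, against 0, 0.451 and 0 TPM in female libraries 1 to 3. PARRI_0003092.t1, the other transcript numbered between the DMRT paralogs, had 16.6, 4.87, 42.7 and 9.25 TPM in males, against 0.976, 0 and 0 TPM in females, and its r with PmDmrt3090 was 0.883. These levels rest on few counts, about 18.35, 5.40, 47.4 and 10.25 in male libraries 1 to 4. The 0.976 TPM in female library 1 amounts to about 1.08 counts. PARRI_0003091.t1 and PARRI_0003092.t1 were both called higher in males (limma FDR 0.0011 and 0.0026). In male library 3 they stood at 2.07 and 2.33 times their male means, close to the 2.16 times of PmDmrt3090, whereas PmDmrt3093, numbered next after them, stood at 1.39 times. Whether these loci overlap, so that reads could be shared, was not analysed here. The next most alike were PARRI_0004922.t1 (r = 0.998, 91.3 ± 81.5 TPM in males and 0.202 ± 0.349 TPM in females) and PARRI_0015851.t1 (r = 0.997, 5.46 ± 2.43 TPM in males and 0.109 ± 0.189 TPM in females). PmDmrt3093 itself held place 908 in likeness to PmDmrt3090 (r = 0.955) and PmDmrt93B place 709 (r = 0.961).

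The transcripts most like PmDmrt3093 were PARRI_0018274.t1, PARRI_0003140.t1 and PARRI_0021055.t1 (r between 0.9975 and 0.9985), all 3 listed at 0 in every female library and lowest in male library 2. Those most like PmDmrt93B were PARRI_0022625.t1, PARRI_0009671.t1 and PARRI_0012338.t1 (r = 0.997 each), with male means of 1.14, 10.6 and 11.98 TPM and with female library 2 the highest of the females in each. For PmDmrt11E these were PARRI_0015823.t1, PARRI_0006015.t1 and PARRI_0016153.t1 (r between 0.970 and 0.979), and each had its lowest level in female library 1. For PmDmrt99B they were PARRI_0006703.t1, PARRI_0013776.t1 and PARRI_0003192.t1 (r between 0.973 and 0.976), all more abundant than PmDmrt99B, with male means from 53.4 to 579 TPM. All were picked for their likeness over these libraries, so their sex differences are no separate result, and the files give them no name.

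To see how far the DMRT levels stood from the weakest signals, they were set beside the 6291 transcripts with a mean above 0 and below 1 TPM over the 7 libraries. The DMRT transcripts have higher means and are not among them, so a level above theirs is partly fixed by this choice. The comparison is a description and no test. The 95th percentile of these weak transcripts was 1.376, 1.43, 1.27 and 1.90 TPM in male libraries 1 to 4, against 1.132, 0.964 and 0.825 TPM in female libraries 1 to 3. All 5 DMRT transcripts were above it in all 4 male libraries. PmDmrt3090 was 8.12 to 57.8 times this value in males, PmDmrt3093 1.74 to 8.54 times, PmDmrt11E 1.74 to 6.74 times, PmDmrt93B 1.15 to 2.35 times and PmDmrt99B 1.22 to 2.25 times. In females PmDmrt11E and PmDmrt99B were above it in all 3 libraries, PmDmrt3090 in female library 2 alone, by a factor of 1.202, and PmDmrt93B and PmDmrt3093 in none. PmDmrt3090 and PmDmrt93B thus lay within the range of the weak transcripts in female libraries 1 and 3, and PmDmrt93B in female library 2 too, at 0.968 times the 95th percentile.

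**Figure D5:**
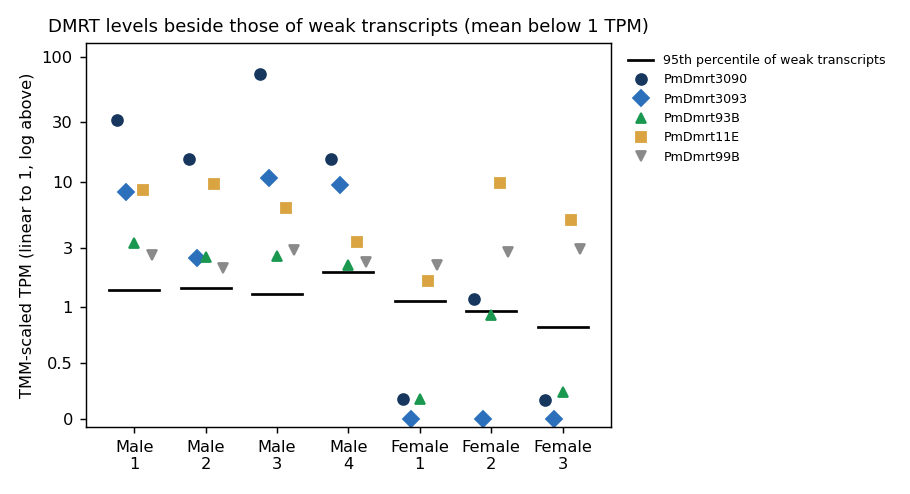
TMM-scaled TPM (vertical axis, linear up to 1 and logarithmic above) of the DMRT transcripts in each library. Black lines mark the 95th percentile of the 6291 weak transcripts in that library, from 0.825 to 1.90 TPM. All DMRT points lie above the line in males, and PmDmrt3093 lies at 0 in females. The weak transcripts were chosen by a low mean over these libraries, which leaves the DMRT transcripts out.

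The female values of PmDmrt3090 were 0.510%, 3.42% and 0.481% of its male mean in female libraries 1 to 3, and those of PmDmrt93B were 6.59%, 35.5% and 9.10%. As a measure of male RNA in a female library, transcripts were taken that averaged 50 TPM or more in males and reached at most 2% of that average in both other female libraries, which gave 44, 49 and 52 transcripts. In the library not used for the choice, their median was 0%, 0.118% and 0.227% of the male mean for female libraries 1 to 3, with upper quartiles of 1.05%, 1.76% and 2.36%. Of these transcripts, 23, 20 and 23 were listed at 0 there. PmDmrt3090 lay above the median in female libraries 1, 2 and 3. It lay below the upper quartile in female libraries 1 and 3 and above it in female library 2. With a male mean of 33.9 TPM and 3.42% in female library 2, PmDmrt3090 itself does not meet the rule, so this only describes the values. Since the transcripts of this measure were chosen for a large sex difference, PmDmrt93B, with its smaller one, is not read against them. The part of male RNA in the female values was not tested.

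Other genes of the fly cascade of sex determination named for this species are PmTra2, whose fly relative transformer-2 acts with Transformer in the splicing of doublesex messenger RNA, and candidates for Sex-lethal, a splicing regulator that acts upstream of Transformer in the fly. Of the 4 transcripts of these genes, 1 was called higher in males and 3 lower in males, where 25.3% and 23.9% of all tested transcripts were called. The study could not assign the candidates to Sex-lethal with certainty. PARRI_0002227.t1 was the higher one (log2 difference 2.07, limma FDR 0.014), and PARRI_0007430.t1 and PARRI_0007430.t2 were lower (-2.99 and -2.65, limma FDR 0.025 and 0.0021). PmTra2 (PARRI_0000692.t1) had 52.4, 70.2, 64.3 and 48.4 TPM in male libraries 1 to 4, against 79.0, 119 and 148 TPM in female libraries 1 to 3, with no overlap (log2 difference -0.94, 95% interval -1.58 to -0.29, limma FDR 0.026). The study reports a female-biased and a male-biased variant of PmTra2, which the single transcript listed here does not separate. PmDmrt3090 was 0.465 to 3.54 times the Sex-lethal candidate PARRI_0002227.t1 within the male libraries and higher than it in 2 of 4, against 0.0126 to 0.156 times in females. The other 4 DMRT transcripts were below PARRI_0002227.t1 in all 4 male libraries. All 5 were above the candidate PARRI_0007430.t1 in all 4 male libraries, and PARRI_0007430.t2 was exceeded by all except PmDmrt93B in all 4, PmDmrt93B exceeding it in 3. PARRI_0007430.t1 had at most 1.02 TPM in males, below the 95th percentile of the weak transcripts. In females PmDmrt3090, PmDmrt3093 and PmDmrt93B exceeded neither transcript in any library. PmDmrt11E exceeded PARRI_0007430.t1 in 2 of 3 female libraries and PARRI_0007430.t2 in 1, and PmDmrt99B in 1 and 0.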

How the data were processed

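The authors quantified reads against the predicted coding sequences with RSEM 1.3.3 and deposited a matrix of TMM-scaled TPM, a signal per transcript and library without counts. From the authors' deposited DESeq2 1.38.0 table only the mean signal per sex (counts divided by size factors) was used. Its other columns hold the authors' comparison (fold changes, standard errors, test statistics and p-values) and were not used. Precision is given as the SD over libraries, and per-library counts are estimates in proportion to TPM.

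Sexes were taken from the sample titles. The test was that of limma 3.58.1 (R 4.3.3) with a trended variance prior, fitted to log2(TPM + 0.1) with no term besides sex, two-sided, with Benjamini-Hochberg FDR. Nothing in the labels states separate cultures, so p-values measure the spread between these libraries. Within-library ratios used Python 3.11.15. The limma fit was tested on simulated data, and the permutation test on made-up values with a known answer. Alternatives were other pseudocounts, filters, scalings and priors, a replicate block, and leaving out each library.

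Named transcripts are the 5 members, the tra2 and Sex-lethal candidates, the transcripts numbered between the DMRT paralogs, and the 3 most alike to each member. Members and lists were chosen with earlier results of these data known. None of 24899 gene identifiers matched the RefSeq gene table of assembly Prichtersi_v1.0, so no coordinates or sequences are given.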

Additional observations from a re-analysis of the deposited data

Results flagged for a closer look

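In the 4 male libraries of 29 named transcripts and ratios, 1 transcript had a library that stood far apart, as about 1 in 20 such groups of 4 would by chance. PARRI_0012338.t1, one of the transcripts most like PmDmrt93B, had 15.4 TPM in male library 1, against 11.04, 11.2 and 10.4 TPM in male libraries 2 to 4. The step down to the next library made up 0.843 of the range of the 4. None of the 5 DMRT transcripts showed this, PmDmrt3090 in male library 3 included.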

How the results depend on the processing

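PmDmrt3090 and PmDmrt3093 were called higher in males under every alternative in which they were tested, with a highest limma FDR of 0.0085 and 0.0067. PmDmrt93B kept its call in 14 of 15 alternatives, the exception being quantile normalization (log2 difference 0.758). Under the same setting PmDmrt11E turned to -0.083 and PmDmrt99B was called at -1.264, and the cause was not tested. When single libraries were left out, the log2 difference of PmDmrt11E ranged from -0.120 (without female library 1) to 1.146. PmDmrt3093, PmDmrt93B and PmDmrt99B have no value where a mean of 5 TPM was required, which they do not reach. The number of called transcripts ranged from 6438 to 10667 with a library left out, against 9072 with all. Deviations of same-numbered libraries correlated at -0.013, 0.028 and 0.253, and those of differently numbered libraries at -0.255 to 0.259. So few correlations cannot settle whether the replicate numbers pair the libraries. With a replicate block, 7586 transcripts were called and no DMRT call changed. The 3 within-library ratios kept their direction and side of the threshold with other pseudocounts. With a library left out, they have no test, since too few splits remain, and kept their direction.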
